A study of Mus musculus with 9 samples.

Results

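Interleukins and interleukin receptors were taken as every row of the deposited mouse count table whose gene symbol is Il followed by a number, with receptors, receptor-like proteins and antagonists included. The rule found 85 of 52636 rows, which carry 83 symbols because Il11ra2 is annotated on 3 rows. RNA came from liver endothelial cells, sorted from dissociated tissue: the sort kept viable CD31-positive cells without CD45 that carried an injected VE-cadherin antibody. The 5 libraries labelled KO carry the genotype Erg and Fli1 double knockout, and the 4 control libraries are labelled wild type. Per the labels, tamoxifen was given to induce the deletion, the same treatment text stands on the control samples, and cells were taken at day 7 after it. The sources used here name neither the Cre driver, the deleted exons nor the age of the mice, and do not say whether each sample came from its own animal. The p-values therefore measure sample-to-sample spread, which may be partly technical. Library totals lay between 26791371 and 36401682 counts in the KO-labelled group and between 31613059 and 34663989 counts in controls.

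Interleukins are secreted proteins through which leukocytes and tissue cells signal to each other. Many act through a receptor that joins a chain specific to the ligand with a signalling chain that several ligands share, such as gp130 (Il6st), the common gamma chain (Il2rg) or the IL-1 receptor accessory protein (Il1rap). Receptors of the IL-1 family signal through the adaptor MyD88 and the IRAK kinases, IL-17 receptors through the adaptor Act1 (Traf3ip2), and most others through Janus kinases and STAT factors. Some members hold signalling back, among them the decoy receptors Il1r2 and Il13ra2, the receptor antagonist Il1rn and the binding protein Il18bp. Endothelial cells answer many interleukins by changing their adhesion molecules and chemokines, and are themselves a source of several.

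The targeted genes and the sort were checked first. In CPM, the counts per 1000000 of a library's TMM-scaled total, Erg averaged 143 ± 10.9 CPM in KO-labelled libraries against 312 ± 17.8 CPM in controls (SD, n = 5 and 4), without overlap between the groups (edgeR adjusted p = 2.61e-05). Fli1 averaged 147 ± 22.5 CPM in KO-labelled libraries against 100.1 ± 8.01 CPM in controls (edgeR adjusted p = 0.00636), so its gene-level count went against the label. Directions are therefore those of libraries labelled KO against libraries labelled wild type. The sort's own genes Cdh5 and Pecam1 lay at 2158 and 1408 CPM in KO-labelled libraries and at 2190 and 1482 CPM in controls. Of 8 sinusoidal endothelial markers all were detected, with 4 lower in KO-labelled libraries, and their summed level was 11351 to 18530 CPM in KO-labelled libraries against 27149 to 29135 CPM in controls. Of 8 markers of endothelium in most organs 4 were lower, with a sum of 8749.5 to 11470.1 CPM in KO-labelled libraries against 12174 to 13444 CPM in controls, and the part of this difference in the members' values was not tested. KO-labelled replicates 2 and 3 stood apart from replicates 1, 4 and 5 for several members, and values without them are given where they end or make a call or where a difference rests on them. They stand out in the same values that are tested. A call gained by leaving out either or both therefore draws on that choice and is no separate support. KO-labelled replicate 3 held 26914 Xist counts and 178 counts of the Y-linked Ddx3y, where each other library had at most 14 counts of the rarer of these genes. By the more abundant of these genes 3 KO-labelled libraries and 1 control were taken as female, and 2 KO-labelled libraries and 3 controls as male. Whether KO-labelled replicate 3 mixes RNA of both sexes was not tested, and fits with a sex term count it as female.

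Of the 85 rows, 36 passed the filter on low counts, 32 had reads and did not pass, and 17 had no reads. Among the 36 tested, 13 were higher and 5 were lower in KO-labelled libraries. The test was the quasi-likelihood test of edgeR, with p-values adjusted over all 14583 genes tested and called under 0.05. Over all genes tested, 14.5% were called higher and 14.8% lower, 29.3% in either direction. The median log2 fold change was 0.42 over the 36 members and 0.01 over all genes tested. A member that passed the filter only through the group where it is high had to differ, and 5 of the 13 higher members averaged under 1 CPM in controls. Of the 36 tested members, all KO-labelled libraries lay above all controls for 11 and below them for 5. These include 10 of the 13 members called higher and all 5 called lower. The called members were picked on these same values, so their separation is no further support. Over all genes tested, 13.2% lay wholly above and 13.8% wholly below. Of the called members, 8 were at least 2-fold higher and 3 at least 2-fold lower. Receptor chains made up 9 of the 13 higher and 3 of the 5 lower members. The ligands Il6, Il23a and Il33 and the decoy Il1r2 were the other higher members, and the ligand Il16 and the decoy Il13ra2 the other lower ones. Of 9 tested ligands, 3 were higher, 1 was lower and 5 did not pass the threshold, and of 21 tested receptor chains, 9 were higher, 3 were lower and 9 did not pass.

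**Figure D1:**
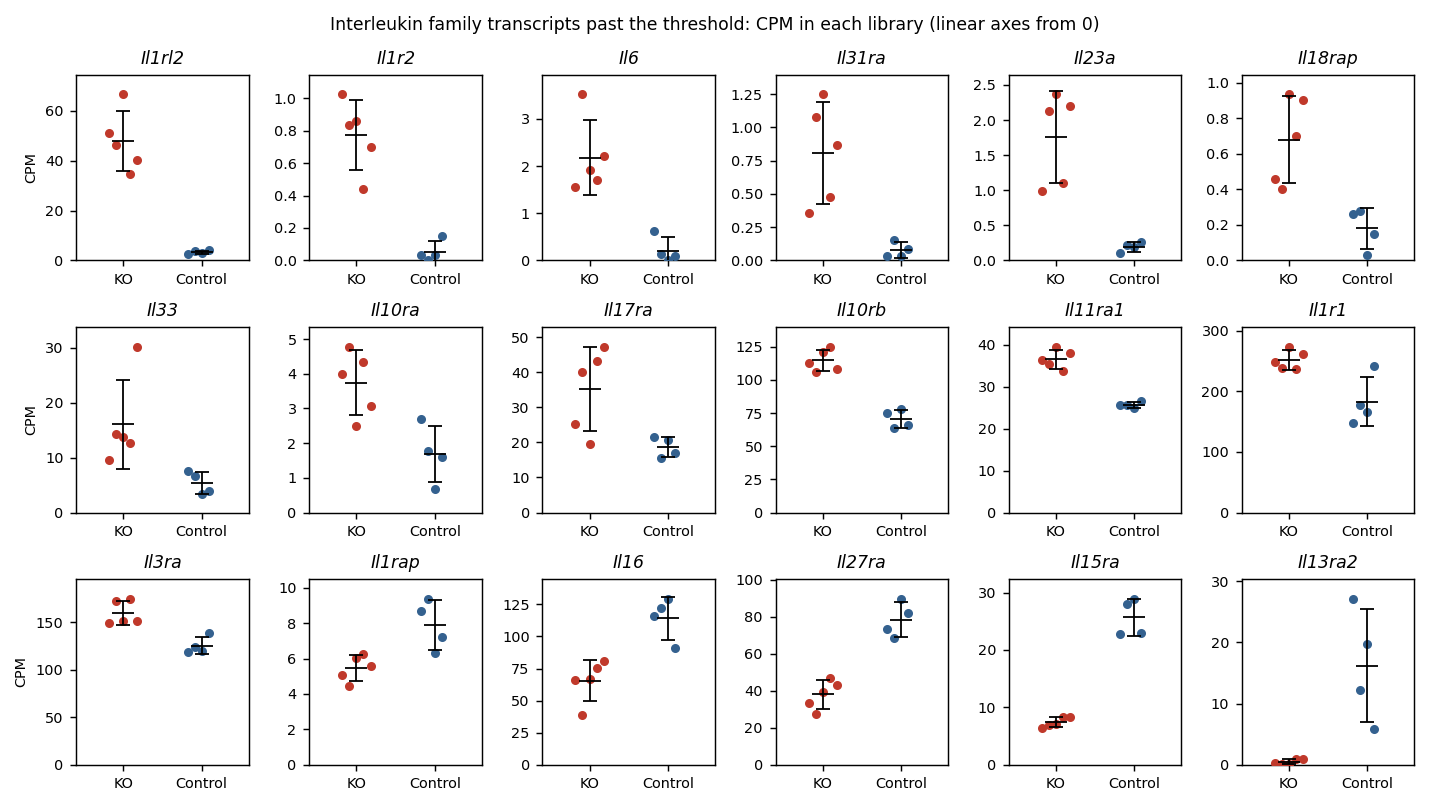
CPM (vertical axes, linear from 0) of the 18 interleukin family transcripts past the threshold, with 1 point per library, the KO-labelled libraries on the left and controls on the right of each panel, and bars for the mean and SD. Panels run from Il1rl2, the most raised, to Il13ra2, the most lowered, and the points overlap between groups only for Il10ra, Il17ra and Il1r1.

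Promoter windows of the 2 most raised and the 2 most lowered members that have an entry are shown, since Erg and Fli1 belong to the ETS family, whose members bind DNA around the core GGAA. Sequences are from RefSeq on GRCm38.p6, from 250 bases before to 50 bases after the annotated start, in the direction of transcription, and capitals mark GGAA on either strand (TTCC on the strand shown).
Il1rl2 (chr1:40324339-40324638, plus strand): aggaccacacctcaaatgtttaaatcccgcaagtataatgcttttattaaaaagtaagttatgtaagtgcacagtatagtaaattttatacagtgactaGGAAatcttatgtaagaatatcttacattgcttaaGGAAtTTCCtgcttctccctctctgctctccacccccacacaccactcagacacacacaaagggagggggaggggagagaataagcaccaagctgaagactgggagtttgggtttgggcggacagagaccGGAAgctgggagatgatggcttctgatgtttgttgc
Il1r2 (chr1:40085843-40086142, plus strand): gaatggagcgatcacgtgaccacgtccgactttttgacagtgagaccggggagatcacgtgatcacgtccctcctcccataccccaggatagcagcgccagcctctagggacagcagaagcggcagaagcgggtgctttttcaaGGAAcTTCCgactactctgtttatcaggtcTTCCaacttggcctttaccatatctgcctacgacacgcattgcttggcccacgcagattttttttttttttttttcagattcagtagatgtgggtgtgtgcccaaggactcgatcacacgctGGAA
Il13ra2 (chrX:147429143-147429442, minus strand): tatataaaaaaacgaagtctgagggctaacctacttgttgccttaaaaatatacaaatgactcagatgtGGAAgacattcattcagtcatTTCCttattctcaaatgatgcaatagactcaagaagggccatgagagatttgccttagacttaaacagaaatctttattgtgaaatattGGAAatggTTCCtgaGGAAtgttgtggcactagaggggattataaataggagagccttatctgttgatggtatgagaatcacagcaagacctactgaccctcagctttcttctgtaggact
Il15ra (chr2:11705043-11705342, plus strand): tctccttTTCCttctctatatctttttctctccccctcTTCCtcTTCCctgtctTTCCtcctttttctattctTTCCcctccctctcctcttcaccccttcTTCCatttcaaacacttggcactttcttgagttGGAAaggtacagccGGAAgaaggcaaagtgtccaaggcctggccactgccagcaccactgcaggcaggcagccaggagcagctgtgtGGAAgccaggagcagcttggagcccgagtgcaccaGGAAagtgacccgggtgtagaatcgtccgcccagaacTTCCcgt
The core occurred 4 times in the Il1rl2 window, 4 times in that of Il1r2, 5 times in that of Il13ra2 and 11 times in the Il15ra window shown, the first of 2 in the table. The RefSeq start used for Il1r2 lies inside the longer gene annotated by GENCODE. GGAA is a short motif, present on either strand in 96.0% of all 32851 promoter windows of this length, with a median of 3 matches. The median was 4 in windows of higher members, 5 in those of lower members and 5 in those of tested members past no threshold. The longer CGGAAG, which contains the core, occurred in the windows of Il1rl2, Il1r2 and Il15ra and in 16.9% of all windows. Of the called members, 13 had an entry, with 12 windows for the higher and 7 for the lower ones. AGGAAG was found in 7 of the 12 windows of higher members, 3 of the 7 of lower members and 8 of the 17 of tested members past no threshold, against 35.4% of all windows. CCGGAAGT was in none of these and in 3.89% of all windows. The STAT-type motif TTCNNNGAA was in 2 of the 12, 0 of the 7 and 1 of the 17 windows, against 8.30% of all windows. These matches are letters in a window and do not show that a factor binds there.

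Levels between genes were compared as FPKM, the CPM per kilobase of merged exons. Among the 20 members with a mean of at least 10 CPM in a group, Il6st, the gp130 chain shared by the receptors for IL-6, IL-11 and IL-27, was the most abundant at 304 ± 132 FPKM in KO-labelled libraries and 223 ± 19.4 FPKM in controls (SD, n = 5 and 4). Next came Il1a, which encodes the cell-associated form of IL-1, at 107 ± 36.1 and 134 ± 28.4 FPKM in the KO-labelled and control groups. Further receptor chains followed. In KO-labelled libraries these were Il4ra (84.4 ± 39.7 FPKM), Il3ra (53.9 ± 4.28 FPKM), Il13ra1 (41.2 ± 9.16 FPKM) and Il1r1 (39.5 ± 2.52 FPKM). In controls the order was Il13ra1 (46.6 ± 5.43 FPKM), Il4ra (46.1 ± 5.87 FPKM), Il3ra (42.2 ± 3.09 FPKM) and Il1r1 (28.8 ± 6.38 FPKM). The libraries' ranges overlapped between neighbours in this order for 14 of 19 neighbouring pairs in the KO-labelled group and 12 of 19 in controls, so most places in the order are not resolved. Il6st stood above Il1a without overlap in both groups. At the low end, Il1rl2 held the last place in controls at 0.477 ± 0.104 FPKM and Il13ra2 the last place in KO-labelled libraries at 0.207 ± 0.172 FPKM.

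**Figure D2:**
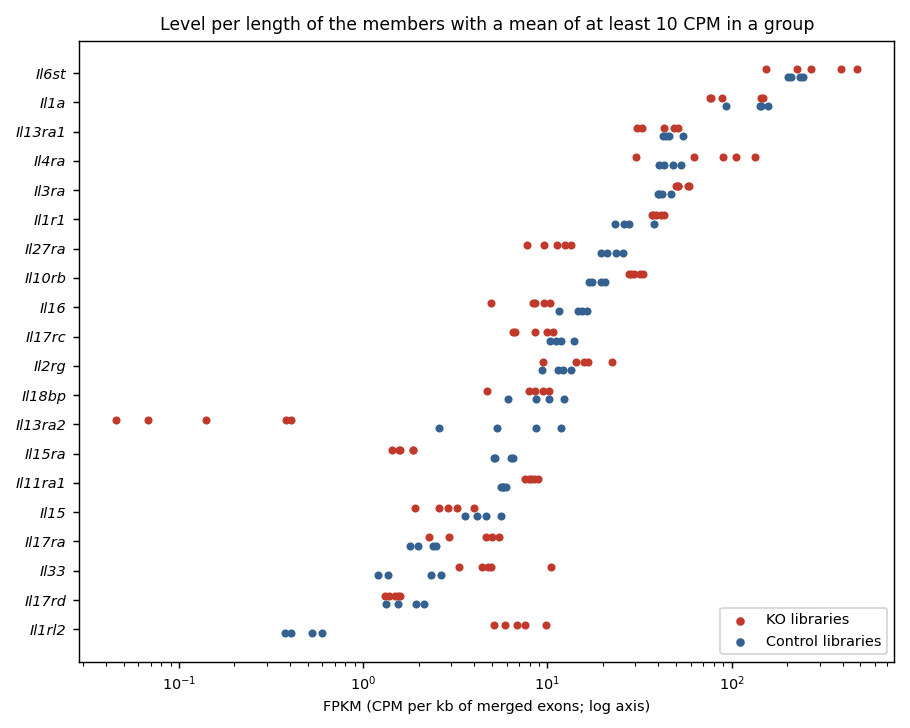
FPKM (horizontal log axis, CPM per kilobase of merged exons) of the 20 members with a mean of at least 10 CPM in a group, 1 point per library, with KO-labelled libraries above controls in each row. Il6st is highest in both groups, and Il1rl2 and Il13ra2 show the widest separation between groups, in opposite directions.

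The widest rise in the IL-1 family was in Il1rl2, which encodes the ligand-binding chain of the IL-36 receptor. Il1rl2 had 51.3, 46.5, 66.7, 34.8 and 40.3 CPM in KO-labelled libraries, against 2.55, 3.59, 2.77 and 4.08 CPM in controls, both in the order of the replicate numbers, as in all such sentences below. Every KO-labelled library lay far above every control. The rise was 14.7-fold, with 3.88 ± 0.23 (SE) on the log2 scale (edgeR adjusted p = 1.42e-05). Il1rap, the accessory chain that IL-1, IL-33 and IL-36 receptors need for signalling, was lower at 5.08, 4.44, 6.002, 6.26 and 5.58 CPM in KO-labelled libraries, against 8.67, 9.37, 6.30 and 7.21 CPM in controls. The highest KO-labelled library lay just under the lowest control, and the log2 fold change was -0.53 ± 0.16 (SE), edgeR adjusted p = 0.0336. Il1rap shares 552 exon bases with Gm20319 on the other strand, which had 38 counts in all. That call ended in 10 of 19 alternatives, among them the fits without control replicate 1 or 2, without KO-labelled replicate 1, 2 or 5, without KO-labelled replicates 2 and 3 together and with a sex term, at edgeR adjusted p between 0.0589 and 0.109 in these fits. Per length, Il1rl2 lay at 9.27 to 18.5 times the level of Il1rap in KO-labelled libraries and at 0.491 to 0.943 times that level in controls. By merged exon length, the transcript of the IL-36 binding chain was thus the scarcer of this pair in each control, and in KO-labelled libraries the more abundant. The order in controls could change with other transcript lengths, which were not looked at.

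Il1r1, the signalling receptor for IL-1, was the most abundant receptor of the family. It had 249, 238, 274, 236 and 262 CPM in KO-labelled libraries, against 148, 177, 165 and 241 CPM in controls. Control replicate 4 lay within the range of the KO-labelled libraries. The log2 fold change was 0.46 ± 0.13 (SE), edgeR adjusted p = 0.0291, a call that 8 of 19 alternatives ended. Among them were the fits without control replicate 1, 2 or 3, without KO-labelled replicate 3 or 5 and without KO-labelled replicates 2 and 3 together, at edgeR adjusted p between 0.0540 and 0.0864 in these fits. The fits with a sex term and with the replicate block were the others that ended the Il1r1 call. Il1r2, a decoy that binds IL-1 without signalling, was scarce, with 29, 27, 33, 12 and 21 counts in KO-labelled libraries, against 1, 0, 1 and 5 counts in controls. Each KO-labelled library held more than the highest control. The rise was 13.4-fold (log2 fold change 3.74 ± 0.62 SE, edgeR adjusted p = 0.00183), and 30.8-fold without control replicate 4, which held 5 of the 7 control counts. Il18rap, the signalling chain of the IL-18 receptor, had 13, 13, 36, 19 and 27 counts in KO-labelled libraries, against 8, 9, 1 and 5 counts in controls, which was 3.72-fold higher (log2 fold change 1.90 ± 0.51 SE, edgeR adjusted p = 0.0205). The Il18rap call ended in 3 alternatives, among them the fits without control replicate 4 (edgeR adjusted p = 0.0568) and with a sex term (0.064).

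Il1r2, Il1r1, Il1rl2, Il1rl1, Il18r1 and Il18rap lie side by side on the plus strand of chromosome 1 (GRCm38, 40074079 to 40551705), a stretch of 478 kb with no other protein-coding gene of the table inside it. The 4 of these genes that could be tested were called higher in KO-labelled libraries. Of these, Il1r2 and Il18rap had under 10 counts in every control, so they passed the count filter only through the KO-labelled libraries. Il1rl1, which encodes the IL-33 receptor ST2, and Il18r1, the ligand-binding chain of the IL-18 receptor, did not pass the filter. Il1rl1 had 8, 8, 8, 8 and 13 counts in KO-labelled libraries, against 0, 1, 4 and 0 counts in controls. Il18r1 had 7, 27, 15, 7 and 12 counts in KO-labelled libraries, against 3, 6, 6 and 6 counts in controls, so the groups were apart for both genes. Sizes along the cluster were uneven, with 14.7-fold for Il1rl2 next to 1.37-fold for its upstream neighbour Il1r1.

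**Figure D3:**
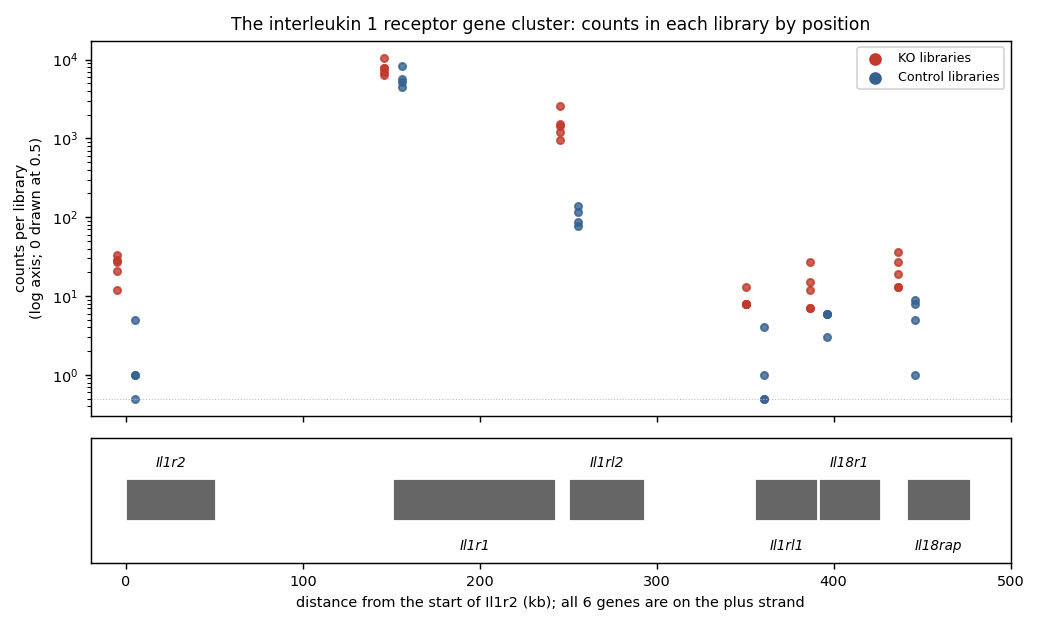
Counts per library (vertical log axis, with 0 drawn at 0.5) of the 6 genes of the interleukin 1 receptor cluster, placed by the distance of each start from the start of Il1r2 in kb, with KO-labelled libraries left of controls and gene bodies drawn to scale in the lower panel. The gap between groups is widest for Il1rl2 and Il1r2, and Il1r1 has by far the most counts in both groups.

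Among the ligands of the family, Il33 rose. It encodes a nuclear cytokine that damaged cells release. Il33 had 9.56, 14.2, 13.7, 12.7 and 30.2 CPM in KO-labelled libraries, against 7.59, 6.71, 3.47 and 3.93 CPM in controls, and the log2 fold change was 1.57 ± 0.37 (SE), edgeR adjusted p = 0.0118. KO-labelled replicate 5 stood apart from the other KO-labelled libraries, which lay between 9.56 and 14.2 CPM and all above the highest control. Without that replicate the rise was 2.32-fold (edgeR adjusted p = 0.0111), against 2.97-fold with it. Stellate cell and fibroblast markers summed to 5.41 CPM in that library, within the 5.23 to 23.2 CPM of the KO-labelled group, and to 3.06 to 13.6 CPM in controls. Of the 7 markers tested in that list, Pdgfra was called higher, at 1.93 ± 0.547 CPM in KO-labelled libraries against 0.381 ± 0.252 CPM in controls (edgeR adjusted p = 0.00262), and its part in the Il33 values was not tested. Il1a had 291, 152, 175, 150.2 and 284 CPM in KO-labelled libraries, against 281, 311, 183 and 285 CPM in controls, for which the log2 fold change was -0.33 ± 0.25 (SE), edgeR adjusted p = 0.344. Those ranges overlapped widely, and the difference was smaller than the spread between libraries. Il18bp, which traps IL-18, had 28.5, 30.7, 14.3, 25.7 and 24.1 CPM in KO-labelled libraries, against 37.3, 30.7, 18.5 and 26.3 CPM in controls (log2 fold change -0.19 ± 0.24 SE, edgeR adjusted p = 0.591), again with overlapping ranges.

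The inflammatory ligand Il1b, the antagonist Il1rn and the ligand Il18 averaged at most 4.10 CPM in a group and did not pass the threshold. Il1b had 5.05, 8.18, 3.404, 2.36 and 1.54 CPM in KO-labelled libraries, against 3.14, 3.75, 0.662 and 2.84 CPM in controls (log2 fold change 0.66 ± 0.56 SE, edgeR adjusted p = 0.41). KO-labelled replicate 2 was the highest of all libraries for Il1b, Il18 and Il1rn, and control replicate 3 the lowest for Il1b and Il1rn. Markers of macrophages and Kupffer cells, the resident macrophages of the liver, summed to 557 CPM in KO-labelled replicate 2, the highest of all libraries, and to 80.6 CPM in control replicate 3. Over the groups these markers summed to 73.7 to 557 CPM in KO-labelled libraries and 80.6 to 363 CPM in controls, and 0 of their 8 genes passed the threshold. KO-labelled replicate 2 was also highest in the summed markers of B and plasma cells, of stellate cells and fibroblasts, and of cholangiocytes and mesothelium. Fewer cells of a type and less RNA per cell cannot be told apart in these bulk samples, and the part of these cells in the Il1b values was not tested. With a sex term in the fit, Il1b was called higher (log2 fold change 1.31, edgeR adjusted p = 0.0181). Its antisense RNA Il1bos, which shares 25 exon bases with it, had 19, 17, 20, 20 and 17 counts in KO-labelled libraries, against 14, 16, 6 and 14 counts in controls (log2 fold change 0.62 ± 0.32 SE, edgeR adjusted p = 0.174), apart between groups in CPM and not called.

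**Figure D4:**
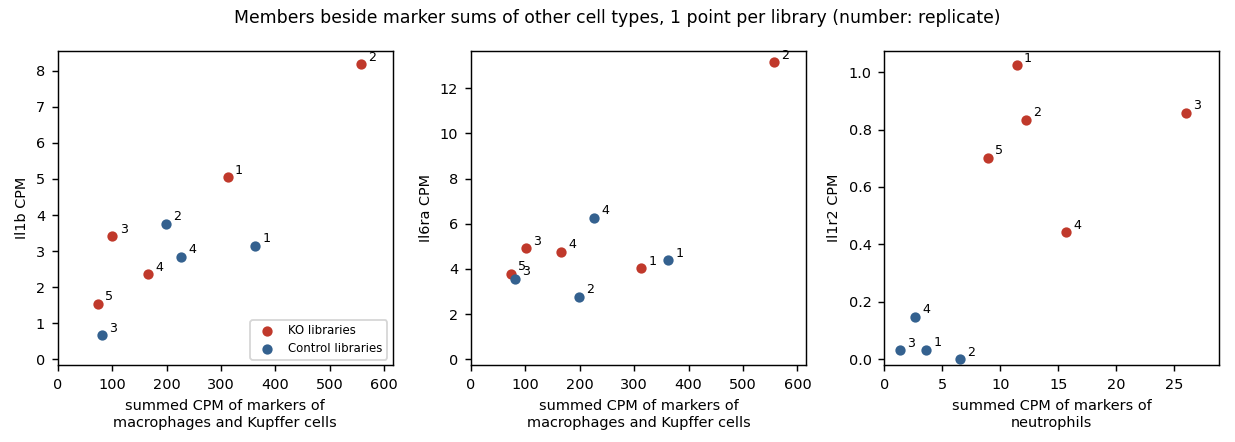
CPM of Il1b, Il6ra and Il1r2 (vertical axes) against the summed CPM of markers of macrophages and Kupffer cells or of neutrophils (horizontal axes), 1 point per library with its replicate number, KO-labelled and control libraries in separate colours. KO-labelled replicate 2 is highest in Il1b, in Il6ra and in macrophage markers, and every KO-labelled library exceeds every control in Il1r2 and in neutrophil markers. KO-labelled replicate 2 is also highest in marker sums of other cell types that are not drawn.

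Signs of blood cells were weak but differed between the groups. Of 7 neutrophil markers, 5 could be tested and 4 were higher in KO-labelled libraries, namely S100a8, S100a9, Retnlg and Cxcr2, and the list summed to 8.95 to 26.01 CPM there against 1.36 to 6.56 CPM in controls. Ly6g and Mpo had 24 and 80 counts in KO-labelled libraries and 0 in controls. Among platelet markers 4 of 5 were higher, with a sum of 63.4 to 136 CPM in KO-labelled libraries against 22.6 to 36.5 CPM in controls. The share called higher over all genes tested was 14.5%. Retnlg, Cxcr2 and the platelet gene Gp9 had 17, 23 and 11 counts over all controls. They thus passed the count filter only through the KO-labelled libraries, where they are high, and their calls are no separate support. The basophil protease gene Mcpt8 had 163 counts in KO-labelled libraries and 2 in controls, and the mast cell, basophil and eosinophil list of 6 genes summed to 0.432 to 4.35 CPM and 0.0886 to 0.562 CPM in the KO-labelled and control groups. T and NK cell markers summed to at most 1.76 CPM in every library, and 0 of 6 markers each of B cells and of hepatocytes passed the threshold. Ptprc, which encodes CD45, averaged 7.74 ± 3.20 CPM in KO-labelled libraries against 5.81 ± 0.677 CPM in controls (edgeR adjusted p = 0.306). Neutrophils are known to carry Il1r2, and basophils to carry Il1rl1, Il4 and Il13. The part of these cells in the members with few counts was not tested.

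**Figure D5:**
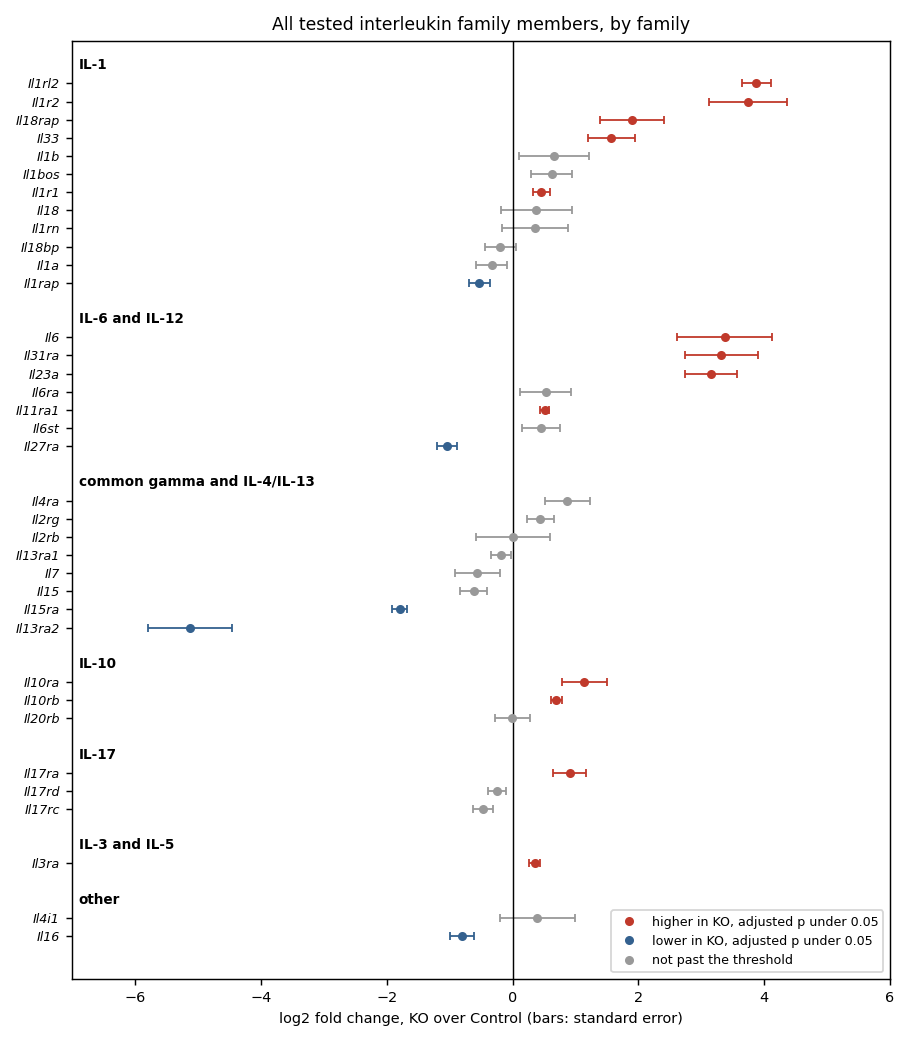
Log2 fold change, KO-labelled over control, of all 36 tested members (horizontal axis, bars for the standard error), ordered within families and coloured by the call at an adjusted p under 0.05. The IL-1 and the IL-6 and IL-12 families hold 9 of the 13 higher members, and 12 and 7 of the 36 tested ones. Among the 9, Il1r2, Il18rap, Il6, Il23a and Il31ra averaged under 1 CPM in controls. Both called members of the common gamma and IL-4/IL-13 family, of 8 tested, are lower.

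In the IL-6 and IL-12 families, which signal through gp130 or related chains, the ligand Il6 rose. Il6 (chromosome 5, 30013114 to 30019981, plus strand), a driver of the acute phase response of the liver, had 44, 114, 74, 46 and 66 counts in KO-labelled libraries, against 19, 4, 0 and 3 counts in controls. Its level was low, at 2.18 ± 0.788 CPM in KO-labelled libraries against 0.209 ± 0.280 CPM in controls, and every KO-labelled library exceeded every control. The rise was 10.4-fold (log2 fold change 3.38 ± 0.75 SE, edgeR adjusted p = 0.00867), and 28.9-fold without control replicate 1, which held 19 of the 26 control counts. In the limma-voom fit it was 19.4-fold (limma adjusted p = 0.00313). Il23a (chromosome 10, 128296139 to 128298752, minus strand), the p19 subunit of IL-23, had 28, 69, 91, 30 and 66 counts in KO-labelled libraries, against 3, 7, 6 and 9 counts in controls, 8.93-fold higher (log2 fold change 3.16 ± 0.41 SE, edgeR adjusted p = 0.000546). Its partner subunit p40, encoded by Il12b, had 7 counts over all KO-labelled libraries, in 1 library, and 4 over all controls. Il31ra, the IL-31 binding chain, had 10, 35, 48, 13 and 26 counts in KO-labelled libraries, against 1, 5, 1 and 3 counts in controls, 9.98-fold higher (log2 fold change 3.32 ± 0.58 SE, edgeR adjusted p = 0.00245). Per length Il31ra reached 0.00203 to 0.0103 times the level of Osmr, the chain with which it forms the IL-31 receptor, in KO-labelled libraries, and 0.000215 to 0.00134 times that level in controls. Il23a and Il31ra had under 10 counts in every control, and Il6 in every control but replicate 1. All of them thus passed the count filter only through the KO-labelled libraries, where they are high.

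Receptor chains of this family went in different directions. Il27ra (chromosome 8, 84030294 to 84042589, minus strand), the IL-27 binding chain, fell to 33.3, 27.2, 39.3, 47.0 and 43.3 CPM in KO-labelled libraries, against 73.1, 68.5, 89.7 and 81.9 CPM in controls. The groups stood apart, and the log2 fold change was -1.04 ± 0.15 (SE), edgeR adjusted p = 0.00107. Il11ra1, the IL-11 binding chain, had 36.3, 35.4, 39.5, 33.6 and 38.0 CPM in KO-labelled libraries, against 25.7, 25.5, 24.96 and 26.6 CPM in controls, and the groups stood apart (log2 fold change 0.51 ± 0.07 SE, edgeR adjusted p = 0.000635). Il6st itself had 2975, 2512, 1705, 4364 and 5341 CPM in KO-labelled libraries, against 2693, 2323, 2254 and 2617 CPM in controls. KO-labelled replicates 1, 4 and 5 lay above every control and replicate 3 below every control, and the log2 fold change of 0.45 ± 0.30 (SE) did not pass the threshold (edgeR adjusted p = 0.283). Without KO-labelled replicates 2 and 3 it did, at 1.72-fold (edgeR adjusted p = 0.0119), a fit that leaves out the library that lay below every control. Il6ra, the IL-6 binding chain, had 4.02, 13.1, 4.91, 4.75 and 3.77 CPM in KO-labelled libraries, against 4.38, 2.78, 3.56 and 6.26 CPM in controls (log2 fold change 0.53 ± 0.41 SE, edgeR adjusted p = 0.363). KO-labelled replicate 2 stood far above the rest for Il6ra, and the other KO-labelled libraries lay within the range of the controls. KO-labelled replicate 2 was highest in macrophage markers, and also in those of B and plasma cells, stellate cells and fibroblasts, and cholangiocytes and mesothelium. The part of these cells in its Il6ra value was not tested.

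Of the family built on the common gamma chain and the IL-4 and IL-13 receptors, the called members were both lower. Il13ra2 (chromosome X, 147383476 to 147429192, minus strand, GRCm38), a decoy receptor that binds IL-13 and has only a short tail inside the cell, had 0.318, 0.154, 0.104, 0.921 and 0.868 CPM in KO-labelled libraries, against 27.1, 12.1, 19.7 and 5.85 CPM in controls. No KO-labelled library reached 1 CPM, while controls differed widely among themselves. It was 34.9-fold lower (log2 fold change -5.13 ± 0.67 SE, edgeR adjusted p = 0.000585), or 22.8-fold lower without KO-labelled replicates 2 and 3. Il13ra1, the signalling IL-13 receptor that shares its ligand, had 189, 122, 114, 181 and 159 CPM in KO-labelled libraries, against 202, 164, 157 and 169 CPM in controls (log2 fold change -0.18 ± 0.16 SE, edgeR adjusted p = 0.435). Per length, Il13ra2 stood at 0.00149 to 0.00890 times Il13ra1 in KO-labelled libraries and at 0.0564 to 0.218 times in controls. Il4ra, the partner of Il13ra1 and of the common gamma chain, had 541, 374, 182, 801 and 636 CPM in KO-labelled libraries, against 319.8, 256, 289 and 241 CPM in controls. Replicate 3 of the KO-labelled libraries lay below every control, while replicates 1, 2, 4 and 5 lay above, and the log2 fold change was 0.87 ± 0.36 (SE), edgeR adjusted p = 0.0943. Without KO-labelled replicate 3 Il4ra was called at 2.13-fold (edgeR adjusted p = 0.00601), and without replicates 2 and 3 at 2.40-fold (edgeR adjusted p = 0.000362). Both fits leave out the library that went against the difference, which favours a call. Il4ra passed in 3 of 19 alternatives, and the other was DESeq2, which used all 9 libraries.

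Il15ra (chromosome 2, 11705290 to 11734317, plus strand), which holds IL-15 at the cell surface and presents it to T and NK cells, fell to 6.35, 6.91, 7.07, 8.32 and 8.25 CPM in KO-labelled libraries, against 22.7, 28.05, 28.9 and 22.95 CPM in controls. Its libraries were tight within each group, and it was 3.48-fold lower (log2 fold change -1.80 ± 0.12 SE, edgeR adjusted p = 1.86e-05). The ligand Il15 had 4.30, 9.04, 6.496, 5.86 and 7.28 CPM in KO-labelled libraries, against 9.39, 12.6, 10.5 and 8.03 CPM in controls. Only KO-labelled replicate 2 lay within the range of the controls, and the log2 fold change of -0.62 ± 0.21 (SE) just missed the threshold (edgeR adjusted p = 0.0532), passing it in 6 of 19 alternatives with DESeq2 (adjusted p = 0.0243) and limma-voom (adjusted p = 0.0458) among them. Without KO-labelled replicates 2 and 3 Il15 was called lower (edgeR adjusted p = 0.0237). Of the other IL-15 receptor chains, Il2rg had 53.6, 22.6, 39.5, 37.8 and 34.3 CPM in KO-labelled libraries, against 27.2, 29.1, 32.0 and 22.3 CPM in controls (log2 fold change 0.44 ± 0.21 SE, edgeR adjusted p = 0.153). KO-labelled replicate 2 was near the lowest control for Il2rg, and without it Il2rg was called higher (edgeR adjusted p = 0.0227). Il2rb, the chain that binds IL-2 and IL-15, averaged 0.532 ± 0.346 CPM in KO-labelled libraries against 0.520 ± 0.305 CPM in controls. Il7, a survival factor for lymphocytes, averaged 0.350 ± 0.0748 CPM in KO-labelled libraries against 0.517 ± 0.221 CPM in controls (edgeR adjusted p = 0.266).

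Both chains of the IL-10 receptor rose. Il10rb, which the receptors for IL-10, IL-22 and interferon lambda share, had 113, 106, 121, 125 and 108 CPM in KO-labelled libraries, against 74.7, 64.0, 78.0 and 66.1 CPM in controls. The groups were well apart, and the log2 fold change was 0.70 ± 0.08 (SE), edgeR adjusted p = 0.000358. Il10ra, the IL-10 binding chain, had 3.99, 4.78, 2.49, 4.35 and 3.07 CPM in KO-labelled libraries, against 2.68, 1.78, 0.693 and 1.595 CPM in controls, with 1 control inside the KO-labelled range. Its log2 fold change was 1.14 ± 0.36 (SE), edgeR adjusted p = 0.0377, and 6 alternatives ended the call, the fits without control replicate 2, 3 or 4 or without KO-labelled replicate 1, 2 or 4, at edgeR adjusted p between 0.0597 and 0.0843. Il20rb, a chain of the receptors for IL-19, IL-20 and IL-24, averaged 6.08 ± 1.98 CPM in KO-labelled libraries against 6.10 ± 1.87 CPM in controls (edgeR adjusted p = 0.992). The ligand Il10 had 33 counts in KO-labelled libraries and 25 in controls.

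Of 3 tested IL-17 receptor chains, 1 was higher and the other two did not pass the threshold. Il17ra, the chain common to receptors for this family, had 25.3, 40.1, 19.6, 43.3 and 47.3 CPM in KO-labelled libraries, against 21.6, 15.6, 20.7 and 17.1 CPM in controls. KO-labelled replicate 3 lay within the range of the controls, and replicates 2, 4 and 5 were the highest of all libraries. Its log2 fold change was 0.91 ± 0.26 (SE), edgeR adjusted p = 0.025. That call ended in 5 of 19 alternatives, among them the fits without control replicate 2 (edgeR adjusted p = 0.0757) or 4 (0.0639), with a sex term (0.0535) and without the count filter (0.056). Il17rc, its partner for IL-17A and IL-17F, had 22.8, 17.5, 17.8, 26.7 and 28.7 CPM in KO-labelled libraries, against 29.7, 31.5, 27.4 and 37.0 CPM in controls, with a log2 fold change of -0.47 ± 0.16 (SE) that did not pass (edgeR adjusted p = 0.0557) and passed in 6 of 19 alternatives, DESeq2 (adjusted p = 0.0354) and limma-voom (adjusted p = 0.0402) among them. KO-labelled replicates 2 and 3 held the lowest Il17rc values, and without them the log2 fold change was -0.26 (edgeR adjusted p = 0.152). Per length Il17ra stood at 0.340 to 0.708 times Il17rc in KO-labelled libraries and at 0.142 to 0.232 times in controls, without overlap. Il17rd, known as an inhibitor of FGF signalling, had 17.0, 14.5, 16.4, 15.2 and 17.4 CPM in KO-labelled libraries, against 14.6, 16.9, 21.1 and 23.6 CPM in controls (log2 fold change -0.24 ± 0.14 SE, edgeR adjusted p = 0.219). No IL-17 ligand was tested, and the 6 of them had at most 11 counts each over all libraries.

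Of the remaining members, Il3ra, the IL-3 binding chain, had 149, 173, 151, 175 and 152 CPM in KO-labelled libraries, against 118, 124, 120.2 and 139 CPM in controls. The groups stood apart, and the log2 fold change was 0.35 ± 0.08 (SE), edgeR adjusted p = 0.0104. Il16 (chromosome 7, 83642825 to 83745726, minus strand), which encodes a chemoattractant for CD4 cells, fell to 66.0, 39.0, 67.1, 75.4 and 80.7 CPM in KO-labelled libraries, against 116, 122, 129 and 90.7 CPM in controls. Its log2 fold change was -0.80 ± 0.19 (SE), edgeR adjusted p = 0.0125. Il16 shares 1202 exon bases with Stard5 on the opposite strand, and Stard5 averaged 34.2 ± 7.63 CPM in KO-labelled libraries against 26.3 ± 2.17 CPM in controls (edgeR adjusted p = 0.0963). The sources used here do not say whether counting used strand, so reads of these genes may be mixed. Il4i1, which encodes an amino acid oxidase and is no interleukin, had 56 counts in KO-labelled libraries and 35 in controls (edgeR adjusted p = 0.658), and shares 3423 of its 4080 exon bases with the far more abundant Tbc1d17.

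Members that did not pass the filter included 9 with over 30 counts in all. In KO-labelled libraries against controls, Il21r had 49 against 47 counts, Il7r 53 against 15, Il17rb 43 against 11, Il12rb1 39 against 13, Il1f9 (IL-36 gamma) 25 against 7 and Il9r 23 against 8. Il10, Il18r1 and Il1rl1 are given above. In a fit with no count filter, where 13.3% of 27053 genes were called, 1 of the 32 untested members with reads passed, Il1rl1 (edgeR adjusted p = 0.0313). Il4 had 24 counts in KO-labelled libraries and 2 in controls, and Il13 had 9 counts in KO-labelled libraries and 0 in controls. Neither ligand passed in that fit (edgeR adjusted p = 0.151 and 0.141). The 17 rows with no reads were Il3, Il9, Il17a, Il19, Il22, Il24, Il25, Il31, Il1f5, Il1f6, Il1f8, Il1f10, Il1rapl1, Il1rapl2 and the 3 rows of Il11ra2. A count of 0 allows up to 0.0105 CPM over all 9 libraries, taken as 3 counts, for counting error only. Il1f6 and Il1f8, the IL-36 ligands alpha and beta, and Il1f5, the IL-36 receptor antagonist, were thus not detected at this depth.

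Other genes of interleukin signalling were taken from 6 lists, 90 genes in all, of which 81 were tested, 20 were higher, 18 were lower and 43 did not pass the threshold. Without control replicate 3, 13 were higher. Over all genes tested, 14.5% were higher and 14.8% lower. Of 17 tested adaptors and kinases of IL-1 and IL-17 receptors, 7 were higher and 2 lower, with a median log2 fold change of 0.05. Traf3ip2, the Act1 adaptor of IL-17 receptors, averaged 32.1 ± 6.91 CPM in KO-labelled libraries against 10.8 ± 2.95 CPM in controls (log2 fold change 1.57 ± 0.22 SE, edgeR adjusted p = 0.000862). Sigirr, an inhibitory receptor of the IL-1 family, fell to 10.9 ± 1.04 CPM in KO-labelled libraries, against 32.6 ± 3.60 CPM in controls (log2 fold change -1.59 ± 0.10 SE, edgeR adjusted p = 1.69e-05). The kinase gene Irak2 rose (log2 fold change 0.64 ± 0.07 SE, edgeR adjusted p = 0.000246), as did the kinase gene Map3k7 and its partners Tab1 and Tab2, with log2 fold changes of 0.56 ± 0.13 (SE), 1.01 ± 0.18 (SE) and 0.33 ± 0.07 (SE). The adaptor gene Tirap and the ubiquitin ligase gene Peli2 were the other higher ones, and Tollip, a restraint on IL-1 signalling, was lower (log2 fold change -0.43 ± 0.08 SE).

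Among 10 tested Janus kinases and STATs, 3 were higher and 3 lower. Stat3, the main STAT of gp130 receptors, rose to 379 ± 17.9 CPM in KO-labelled libraries, against 256 ± 15.5 CPM in controls (log2 fold change 0.57 ± 0.08 SE, edgeR adjusted p = 0.000726), and Jak1 and Stat5a were also higher, with log2 fold changes of 0.39 ± 0.12 (SE) and 0.67 ± 0.12 (SE). Tyk2 and Stat2, which serve interferon receptors as well, were among the lower ones, at -0.58 ± 0.09 (SE) and -0.91 ± 0.16 (SE). Of 15 negative regulators, Socs4, Socs5 and Ptpn2 were higher and Socs1, Sh2b3 and Pias1 lower, with Socs1 at 14.2 ± 6.77 CPM in KO-labelled libraries against 32.0 ± 8.73 CPM in controls (log2 fold change -1.17 ± 0.35 SE, edgeR adjusted p = 0.0345). Of 13 tested cytokines and chains of related receptors, Osm was higher (log2 fold change 1.66 ± 0.53 SE) and Cntfr, Crlf2 and Tslp lower. Tslp, an epithelial alarmin, and Crlf2, the chain that binds it, had log2 fold changes of -2.02 ± 0.34 (SE) and -0.49 ± 0.08 (SE). Of 11 genes of inflammasomes, which process IL-1 beta and IL-18, 4 were lower and 1 higher. Casp1, the processing protease, fell to 44.2 ± 9.60 CPM in KO-labelled libraries, against 70.7 ± 8.68 CPM in controls (log2 fold change -0.68 ± 0.16 SE, edgeR adjusted p = 0.0105), Casp4, Nlrc4 and Nlrp1b fell too, and the DNA sensor gene Aim2 rose (log2 fold change 1.11 ± 0.26 SE).

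Of 15 tested transcripts known to be induced by interleukins, 5 were higher, 3 were lower and 7 did not pass, with a median log2 fold change of 0.01. Lcn2, an acute phase gene induced by IL-1, IL-6 and IL-17 and also carried by neutrophils, averaged 3.16 ± 1.33 CPM in KO-labelled libraries against 0.416 ± 0.165 CPM in controls (log2 fold change 2.92 ± 0.42 SE, edgeR adjusted p = 0.000845). The chemokine genes Cxcl1 and Ccl2 had log2 fold changes of 1.83 ± 0.54 (SE) and 0.94 ± 0.23 (SE), and the kinase gene Pim1 and the RNase gene Zc3h12a were the other higher ones. The adhesion genes Vcam1, Icam1 and Selp were lower, at -2.07 ± 0.28 (SE), -1.06 ± 0.16 (SE) and -1.31 ± 0.24 (SE). Both called chemokine genes were thus higher and the 3 called adhesion genes lower, while the adhesion gene Sele did not pass (log2 fold change -0.18 ± 0.60 SE, edgeR adjusted p = 0.85). Cxcl1 varied widely, at 29.8 ± 21.9 CPM in KO-labelled libraries against 8.41 ± 2.40 CPM in controls (edgeR adjusted p = 0.031). Its groups overlapped, while those of Ccl2, Vcam1, Icam1 and Selp were apart.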

How the data were processed

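Polyadenylated RNA of 9 mouse samples was sequenced. Per the labels' protocols, libraries were made with an unstranded or a stranded TruSeq kit, without saying which for which library. The authors deposited raw counts per Ensembl gene. The submitters' processing notes name GRCm38, STAR 2.7.6a and FastQC 0.11.5; the counting program, its strand setting and the annotation release were not stated there. Symbols, positions and merged exon lengths came from GENCODE M21, which named 52489 identifiers and left 147 unnamed. Groups and replicate numbers came from sample titles, and columns were matched by description with 0 left unused. Counts were filtered with filterByExpr (minimum count 10, minimum total 15), TMM-scaled and put through the edgeR 4.0.16 quasi-likelihood test under R 4.3.3 (robust, no covariate) with Benjamini-Hochberg adjustment over 14583 genes at 0.05. The SE of a log2 fold change is its size over the square root of F. DESeq2 1.42.0, limma 3.58.1 (voom), other scalings and filters, a replicate block, a sex term and leaving out libraries were alternatives. No library was a copy of another: pairs of a group gave a chi-square of 20.3 to 182 per degree of freedom. KO-labelled pairs that include replicate 2 or 3 gave 98.4 to 182, and pairs among replicates 1, 4 and 5 gave 28.8 to 50.4. Replicates 2 and 3 thus stood apart over the whole count table, beyond the members. 1 count was worth 0.0260 to 0.0368 CPM, which sets the precision of scarce members. Exon overlaps with other counted genes touch 14 of 36 tested members. The values of 1 gene of the partner lists are not reported here. Members, lists and the rule for named genes were chosen with earlier results of these data known. That rule allows every tested member, with values per library for called members and those of at least 10 CPM, and called genes of the partner lists; Il1b, Il1bos and Il6ra have values per library although they lie below 10 CPM and were not called, chosen after their values were seen.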

Additional observations from a re-analysis of the deposited data

Results flagged for a closer look

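Of 72 combinations of a tested member and a group, 2 held a library far from the others of its group by Dixon's gap test, where chance flags about 1 in 20. Il33 in KO-labelled replicate 5 was at 30.2 CPM, where the other KO-labelled libraries lay between 9.56 and 14.2 CPM. Il6ra in KO-labelled replicate 2 was at 13.1 CPM, where the other KO-labelled libraries lay between 3.77 and 4.91 CPM. Macrophage and Kupffer cell markers were also highest in that library, at 557 CPM in sum. So were the summed markers of B and plasma cells (43.9 CPM), stellate cells and fibroblasts (23.2 CPM), and cholangiocytes and mesothelium (9.57 CPM). The part of any of these cells in its Il6ra value was not tested.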

How the results depend on the processing

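Over 19 alternatives, 13 of the 18 called members kept their call wherever they could be tested, none of the 18 changed sign, and Il1rap, Il1r1, Il10ra, Il17ra and Il18rap each lost the call in at least 1. Without being called in the first place, Il15, Il17rc, Il4ra, Il2rg, Il6st and Il1b passed in at least 1 alternative. Counts of called members lay between 7 and 15 higher and between 4 and 7 lower. The low value of 7 higher members came with a filter of 5 CPM in 4 samples, which left 22 members tested. For the partner genes, 10 were higher with the replicate block, and 13 to 20 when 1 library was left out, lowest without control replicate 3. Over all genes, 1288 were higher and 1370 lower with the replicate block on replicates 1 to 4, against 1898 and 1901 on the same 8 libraries without it, a comparison added after seeing the data. With the block, 10 members were higher and 6 lower, and Il1rap, Il17ra, Il18rap and Il1r1 had edgeR adjusted p = 0.158, 0.138, 0.132 and 0.0914, against 0.0589, 0.0492, 0.0403 and 0.054 on the same libraries without it. The numbers do not pair the libraries: same-numbered libraries had correlations of deviations between -0.327 and 0.218, and 1 of 4 KO-labelled libraries correlated best with the control of its number. The simplest scaling, library totals, moved the median log2 fold change of all genes to 0.08. Values changed sign for 6 members past no threshold, all with edgeR, DESeq2 or limma adjusted p over 0.6. Il20rb, at -0.00469 in log2 fold change, was at 0.000865 with DESeq2, 0.00268 with limma-voom, 0.000738 with RLE scaling, 0.0583 with library totals, 0.106 with the replicate block, 0.0859 with a sex term and 0.101 with the same 8 libraries without the block, and between -0.199 and 0.183 with 1 library left out. Il2rb, at 0.013 in log2 fold change, was at -0.0172 with limma-voom, -0.146 with the replicate block, -0.228 with a sex term and -0.0389 with the same 8 libraries without the block, and between -0.399 and 0.393 with 1 library left out. Without KO-labelled replicates 2 and 3, Il13ra1 was at 0.0334, Il18 at -0.0325 and Il6ra at -0.0169; Il18 lay between -0.155 and 0.758 with 1 library left out, and Il18bp at 0.0261 with the sex term. Members under 1 CPM rest on few counts.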
